A study of Homo sapiens with 12 samples.

Results

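The baseline of a pair of B cell lymphoma lines is described here, before any induction: TMD8, a line of the activated B cell-like (ABC) kind of diffuse large B cell lymphoma, and OCI-Ly7, a line of the germinal centre B cell-like (GCB) kind. Both lines carried a guide RNA against PRMT5, the arginine methyltransferase that adds symmetric dimethyl marks, under doxycycline control. All 12 libraries are labelled with 20 ng/ml doxycycline and a number of days. The libraries used are the 4 labelled with 0 days, 2 from TMD8 and 2 from OCI-Ly7, which are taken here as not induced. The other 8 libraries, of days 3 and 6, enter only as a later look at the same genes. Days were taken from the sample titles, since the treatment protocol lists a different set. Of 25369 gene rows, matched by name between the tables of the 2 lines, 11845 had a mean of at least 1 FPKM (fragments mapped to a gene, scaled by transcript length and by the library's mapped fragments) in either line at day 0 and were kept: 9805 reached it in both lines, 877 only in TMD8 and 1163 only in OCI-Ly7. With 1 line of each kind, the lymphoma kind, the line and the table it was deposited in cannot be told apart. Nothing in the labels says that the 2 libraries of a line came from separate cultures, so the p-values measure the spread between these libraries, which may be technical.

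Germinal centre B cells divide fast and mutate their antibody genes under the transcription repressor BCL6, and GCB lymphomas keep much of that programme. ABC lymphomas resemble B cells caught on the way to the plasma cell: IRF4 is high, and chronic B cell receptor and Toll-like receptor signalling keeps the transcription factor NF-kB active, with autocrine IL-6 and IL-10 acting through STAT3. TMD8 is widely used as a model of that dependence, and OCI-Ly7 as a GCB line.

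A difference is given as TMD8 minus OCI-Ly7 on the scale log2(FPKM + 1), which understates the fold of low genes, with its standard error (SE) and an adjusted p from limma over all genes kept. A gene was called at least 2-fold different when its adjusted p was under 0.05 and its difference at least 1 on that scale both as deposited and after median-ratio scaling of the 4 libraries. By adjusted p alone 74.7% of the genes kept differed, so that alone says little about any single gene. The 2-fold rule called 29.0%: 1682 genes (14.2%) were higher in TMD8 and 1753 (14.8%) in OCI-Ly7. Among the 9805 genes reached in both lines it called 21.2%, of which 1064 (10.9% of those tested) were higher in TMD8 and 1011 (10.3%) in OCI-Ly7. A gene kept through 1 line only had to differ, so the counts for genes present in both lines are the ones to read the gene groups against. The median absolute difference between the lines was 0.52, against 0.09 between the TMD8 libraries and 0.10 between the OCI-Ly7 libraries, and both libraries of 1 line lay beyond both of the other for 88.5% of genes. The deposited values of a library summed to between 453722 and 467844 FPKM, and 10660 to 10951 genes reached 1 FPKM in it. The plot of every gene kept shows the spread on both sides of the line of equal level.

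**Figure D1:**
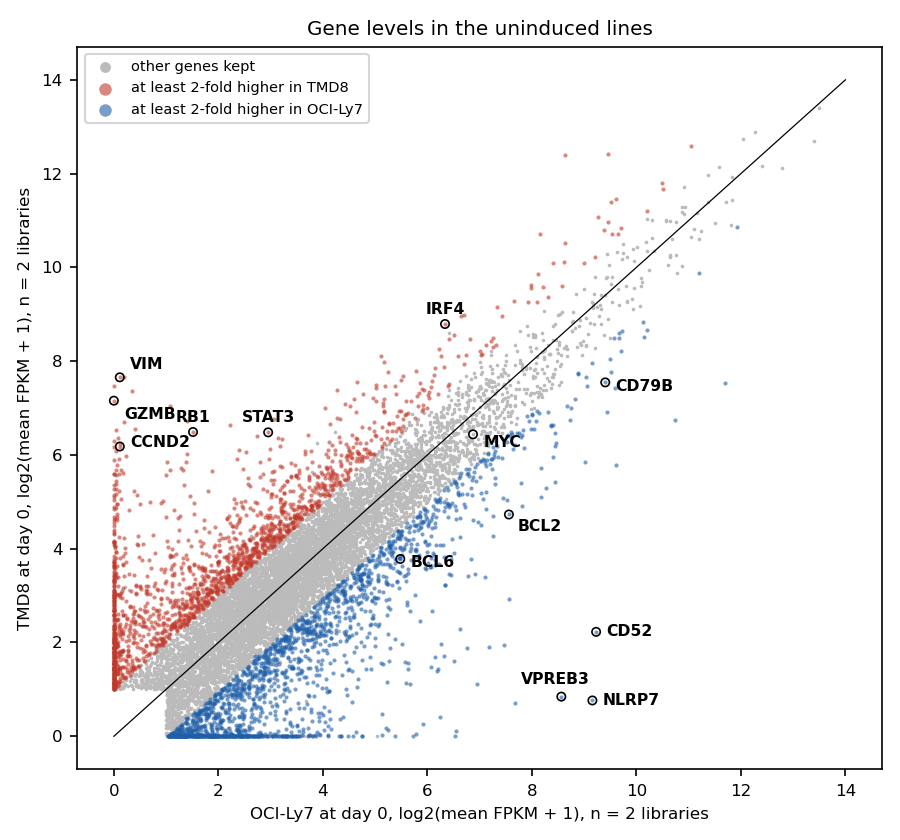
Mean level of each gene kept in TMD8 (vertical) against OCI-Ly7 (horizontal) at day 0, both as log2(FPKM + 1) with 2 libraries a line; red and blue points were at least 2-fold higher in TMD8 or OCI-Ly7 and the line marks equal levels. VIM, GZMB and CCND2 lie on the left edge, near 0 in OCI-Ly7, and NLRP7, VPREB3 and CD52 lie far below the line; Y-linked rows are not drawn.

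Both lines carried B cell genes and few markers of other blood cells. All 15 genes of a B cell identity list were kept, 1 (MS4A1) at least 2-fold higher in TMD8 and 6 in OCI-Ly7; the 1 fell to 0 without the first library of either line. In bulk RNA, fewer cells that express a gene and less RNA per cell cannot be told apart. None of 15 myeloid markers reached 1 FPKM in either line; their summed level was 0.31 and 0.24 FPKM in TMD8 and 0.16 and 0.13 FPKM in OCI-Ly7. Of 18 T and NK cell markers 3 were kept (CD5, CD4 and KLRF1, none above 2.5 FPKM), and the defining T cell genes CD3D, CD3E and CD3G were listed at 0 in all 4 libraries. Of 15 stromal and epithelial markers 5 were kept, among them the adhesion genes CDH1, at 18.0 and 17.6 FPKM in TMD8 against 0.092 and 0.21 in OCI-Ly7, and EPCAM, listed at 0 in TMD8 against 5.36 and 5.70 in OCI-Ly7.

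Of the 6 markers used to tell the lines apart, IRF4 and CCND2 were higher in TMD8, and BCL2, BCL6, CD79B and, by less than 2-fold, MYC in OCI-Ly7. IRF4, the factor that drives B cells toward the plasma cell, stood at 461 and 423 FPKM in TMD8 and at 77.2 and 82.5 FPKM in OCI-Ly7 (log2 difference 2.45, SE 0.07, adjusted p = 4.16e-05). CCND2, a D-type cyclin that starts the G1 phase, was at 75.6 and 67.4 FPKM in TMD8 and near 0 in OCI-Ly7, at 0.058 and 0.11 FPKM (log2 difference 6.06, SE 0.09). Neither gene's libraries overlapped between the lines, which held for 88.5% of all genes kept. BCL6, the germinal centre repressor, was at 12.9 and 12.6 FPKM in TMD8 against 45.4 and 41.9 in OCI-Ly7 (log2 difference -1.70, SE 0.07, adjusted p = 8.95e-05). BCL2, which blocks apoptosis, was at 25.9 and 25.2 FPKM in TMD8 against 192 and 183 in OCI-Ly7 (log2 difference -2.83, SE 0.06). CD79B, a signalling chain of the B cell receptor, was at 182 and 190 FPKM in TMD8 against 604 and 749 in OCI-Ly7 (log2 difference -1.85, SE 0.12), whereas its partner CD79A, at 288 and 276 against 292 and 351 FPKM, did not pass (log2 difference -0.18, adjusted p = 0.172). MYC, which encodes a transcription factor that drives growth, was at 88.8 and 82.8 FPKM against 117 and 115 (log2 difference -0.43, SE 0.06, adjusted p = 0.00305).

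The genes of the Lymph2Cx panel, which clinics use to assign the cell of origin, followed the labels only in part. Of its 8 ABC genes, 4 were at least 2-fold higher in TMD8 and none in OCI-Ly7, with a median difference of 1.03, against 0.01 over all genes present in both lines. RAB29 (71.5 and 69.6 FPKM against 20.7 and 22.1), TNFRSF13B, the BAFF and APRIL receptor TACI (52.0 and 47.7 against 17.6 and 16.5), LIMD1 and IRF4 made up the 4. PIM2, a survival kinase, did not differ past the threshold (log2 difference 0.07, SE 0.06, adjusted p = 0.306), and CREB3L2 was slightly higher in OCI-Ly7 (log2 difference -0.35, adjusted p = 0.0416, which median-ratio scaling took to 0.0565). Of the panel's 7 GCB genes, 6 were kept: MME, ASB13 and MYBL1 were at least 2-fold higher in OCI-Ly7 and SERPINA9 in TMD8. MME, which encodes the germinal centre surface enzyme CD10, was listed at 0 in both TMD8 libraries and stood at 9.70 and 10.8 FPKM in OCI-Ly7. SERPINA9, a protease inhibitor named for germinal centres, went the other way, at 12.9 and 11.9 FPKM in TMD8 and listed at 0 in both OCI-Ly7 libraries. ITPKB and the germinal centre confinement receptor S1PR2 were also higher in TMD8, by 0.52 and 0.62 on the log2 scale. ITPKB lost its call without the first TMD8 or the second OCI-Ly7 library (adjusted p = 0.0542 and 0.0605), and S1PR2 without either TMD8 library (0.0758 and 0.0705).

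**Figure D2:**
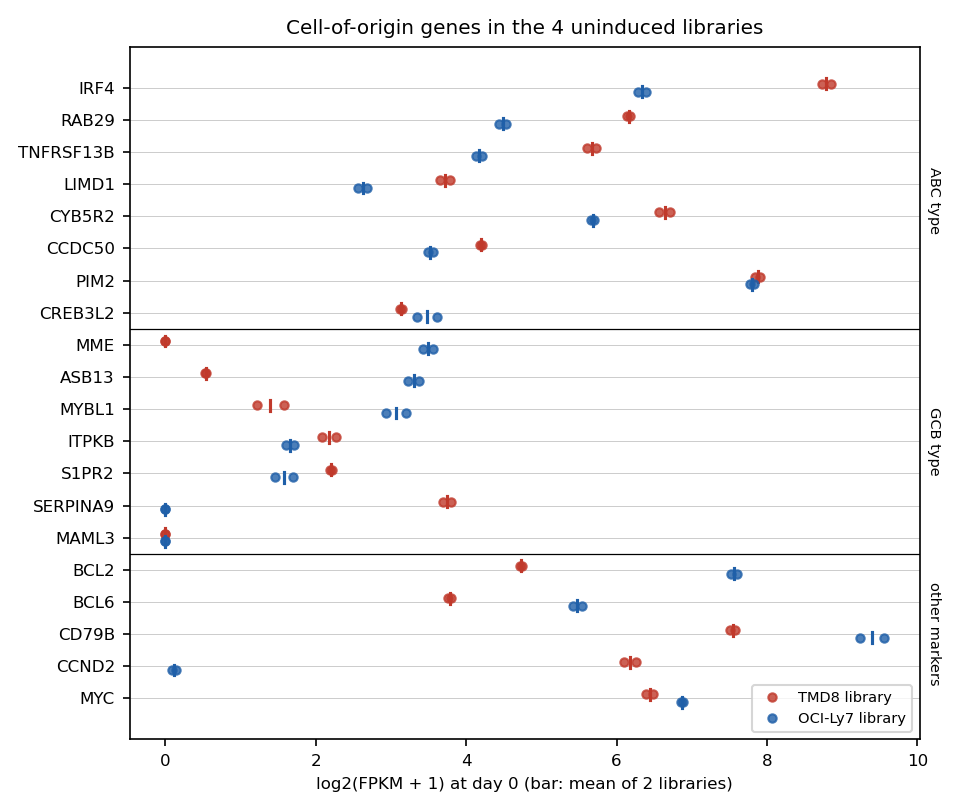
Levels at day 0 of the Lymph2Cx ABC genes (top), GCB genes (middle) and other line markers (bottom) as log2(FPKM + 1), 1 point a library (red TMD8, blue OCI-Ly7), with a bar at the mean of each line. MME lies at 0 in TMD8 and SERPINA9 at 0 in OCI-Ly7, so that these GCB genes separate the lines in opposite directions.

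Among further genes tied to the ABC kind, 11 of 22 kept were at least 2-fold higher in TMD8 and 6 in OCI-Ly7, and among further GCB genes 14 of 22 were higher in OCI-Ly7 and 4 in TMD8. Among those in both lines, 8 of 18 ABC genes were higher in TMD8 and 5 in OCI-Ly7, and 2 of 13 GCB genes were higher in TMD8 and 7 in OCI-Ly7. The exceptions ran from large to just past the 2-fold limit. LMO2, a transcription cofactor used to recognise GCB lymphoma, was at 40.0 and 24.4 FPKM in TMD8 and at 0.062 and 0.14 FPKM in OCI-Ly7 (log2 difference 4.87, SE 0.24, adjusted p = 0.000135). MEF2B, a germinal centre activator of BCL6, was at 123 and 142 FPKM in TMD8 against 60.3 and 57.9 in OCI-Ly7 (log2 difference 1.15, SE 0.09). The MEF2B row is uncertain, since the OCI-Ly7 libraries of day 3 stood at 49.5 and 1.98 FPKM. On the other side, FOXP1, a factor high in ABC lymphoma, was at 7.05 and 4.96 FPKM in TMD8 against 14.2 and 13.5 in OCI-Ly7 (log2 difference -1.10, SE 0.16), although its adjusted p was 0.0528 without the first OCI-Ly7 library. GCB genes that followed the label included MARCKSL1 (43.1 and 40.9 FPKM against 355 and 337), STAP1 (log2 difference -3.47) and GCSAM (log2 difference -3.30), a germinal centre motility protein.

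The largest differences were of genes on in 1 line and at or near 0 in the other. In TMD8 the intermediate filament VIM stood at 205 and 196 FPKM against 0 and 0.16 in OCI-Ly7 (log2 difference 7.55, SE 0.10, adjusted p = 2.2e-05). GZMB, the granule protease of cytotoxic cells, was at 141 and 143 FPKM in TMD8 and listed at 0 in OCI-Ly7, beside the CD3 genes at 0 given above. Also on in TMD8 were GTSF1 (log2 difference 7.49), the ion channel TRPM4 (6.49), the transcription factor CREB3L1 (6.50), the lipid receptor CD36 (6.28) and the tumour antigen PRAME (6.15). Members of the CT45 family, CT45A1 and CT45A4, were listed at 0 in OCI-Ly7, but these near-identical copies can share reads and their single values are uncertain. In OCI-Ly7 the inflammasome family member NLRP7 led, at 537 and 603 FPKM against 0.88 and 0.51 (log2 difference -8.40, SE 0.13). VPREB3, a small chaperone-like B cell protein, followed at 381 and 373 FPKM against 0.86 and 0.74 (log2 difference -7.72, SE 0.07), then CD52, the target of alemtuzumab, at 580 and 618 against 3.75 and 3.61 (log2 difference -7.00, SE 0.06). The chemokine gene CCL17, the calcium-binding S100A16, the imprinted SNURF and the cohesin subunit REC8 were likewise high in OCI-Ly7, with log2 differences of -6.43, -6.97, -6.53 and -5.84.

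More B cell receptor signalling genes were at least 2-fold higher in TMD8 than in OCI-Ly7: 11 of 28 against 3, or 9 of 25 against 2 among those in both lines, with a median difference of 0.46 over the latter. The kinase LYN, which acts first at the receptor, was at 222 and 214 FPKM in TMD8 against 36.6 and 37.3 in OCI-Ly7 (log2 difference 2.53, SE 0.06). BTK, the target of ibrutinib, was at 135 and 127 FPKM against 33.0 and 36.0 (log2 difference 1.90, SE 0.07). SYK, between LYN and BTK, was at 66.5 and 62.7 FPKM against 28.3 and 29.8. PTPN6, the phosphatase SHP-1 that restrains the receptor, was higher too, at 261 and 243 FPKM against 34.8 and 35.1. PLCG2, the substrate of BTK, did not pass, at 44.0 and 41.0 against 40.4 and 41.1 FPKM (log2 difference 0.06, SE 0.07, adjusted p = 0.465).

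Of 35 regulators that carry these signals to NF-kB, 8 were at least 2-fold higher in TMD8 and none in OCI-Ly7 (7 and 0 of the 32 in both lines). By adjusted p alone, 19 were higher in TMD8 and 8 in OCI-Ly7. TLR9, the nucleic acid receptor upstream of MYD88, was at 32.8 and 31.7 FPKM against 3.73 and 4.12 (log2 difference 2.75, SE 0.08). MAP3K14, the NF-kB-inducing kinase, was higher by 2.55 (SE 0.17). MYD88 itself was slightly higher in OCI-Ly7, at 23.0 and 20.7 against 27.7 and 27.4 FPKM (log2 difference -0.32, adjusted p = 0.0152), and TNFAIP3, the brake on the pathway, was higher in TMD8 by 0.56 (SE 0.10). The call for MYD88 was lost without the second TMD8 library or either OCI-Ly7 library (adjusted p = 0.0556, 0.0822 and 0.0764), and that for TNFAIP3 without the first library of either line (0.0563 and 0.0552). NFKBIB did not pass (log2 difference 0.01, adjusted p = 0.901).

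Of 30 NF-kB target genes kept, 16 were at least 2-fold higher in TMD8 and 4 in OCI-Ly7; 8 of the 30 reached 1 FPKM only in TMD8 and 3 only in OCI-Ly7, and among the 19 in both lines the counts were 9 and 1. IL10, an anti-inflammatory cytokine that B cells also make for themselves, was at 46.6 and 45.9 FPKM in TMD8 and at 0 and 0.071 FPKM in OCI-Ly7. EBI3, a cytokine subunit, was at 75.0 and 70.1 FPKM against 7.52 and 8.64 (log2 difference 3.02, SE 0.09). CD44, CD83 and CCL4, a receptor for hyaluronan, an activation marker and a chemokine, were higher by 2.52, 2.54 and 3.62. IL6 was low but on in TMD8, at 5.27 and 3.92 FPKM against 0 and 0.097. NFKBIA, the inhibitor that NF-kB itself induces, was higher in OCI-Ly7 by less than 2-fold, at 66.3 and 56.8 FPKM in TMD8 against 89.3 and 88.7 (log2 difference -0.53, adjusted p = 0.00545, and 0.0576 and 0.0557 without the first or second OCI-Ly7 library). The 4 targets higher in OCI-Ly7 by the 2-fold rule were CCL17, LTB, IL2RG and IRF1. Promoters of 3 targets are shown because they carry the kappaB consensus site while the genes' levels in the lines differ in direction or size: EBI3 and IL6, higher in TMD8, and NFKBIA, higher in OCI-Ly7. Each is the 250 bases before the RefSeq start of the gene in GRCh38.p14, 5′ to 3′ on the gene's strand, with the match in capitals, at chr19:4229273-4229522 (plus strand), chr7:22726950-22727199 (plus) and chr14:35404750-35404999 (minus).
EBI3: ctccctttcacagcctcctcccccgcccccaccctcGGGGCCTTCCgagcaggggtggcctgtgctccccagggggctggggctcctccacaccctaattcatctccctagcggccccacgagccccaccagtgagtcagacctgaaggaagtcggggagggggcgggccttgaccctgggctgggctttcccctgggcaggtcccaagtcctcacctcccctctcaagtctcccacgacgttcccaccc
IL6: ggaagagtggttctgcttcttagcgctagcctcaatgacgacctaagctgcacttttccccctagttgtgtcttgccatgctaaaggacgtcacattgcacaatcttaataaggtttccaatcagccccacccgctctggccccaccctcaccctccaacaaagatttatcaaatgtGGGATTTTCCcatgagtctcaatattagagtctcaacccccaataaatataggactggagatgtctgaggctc
NFKBIA: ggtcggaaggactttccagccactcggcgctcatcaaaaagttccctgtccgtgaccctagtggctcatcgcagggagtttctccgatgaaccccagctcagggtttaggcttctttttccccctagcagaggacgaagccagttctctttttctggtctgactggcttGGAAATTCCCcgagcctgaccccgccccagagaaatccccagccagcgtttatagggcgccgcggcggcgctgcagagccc
The kappaB site, searched on both strands, matched in 12 of 26 NF-kB target promoters that RefSeq held (46.2%), in 5 of the 13 whose genes were at least 2-fold higher in TMD8 (38.5%), and in 10.9% of 15545 promoters in all. Among genes called higher it was present in 13.0% of promoters for TMD8 and in 12.3% for OCI-Ly7. A match is a run of letters only and says nothing of binding.

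Of 24 genes of cytokine signalling through JAK and STAT proteins, 8 were at least 2-fold higher in TMD8 and none in OCI-Ly7 (5 and 0 of the 21 in both lines). STAT3, which relays IL-6 and IL-10, was at 91.8 and 84.9 FPKM in TMD8 against 6.53 and 6.95 (log2 difference 3.53, SE 0.07, adjusted p = 2.54e-05). SOCS3, a STAT3-induced inhibitor, was at 39.3 and 33.6 FPKM against 0.36 and 0.25 (log2 difference 4.84, SE 0.11). PTPN1, a phosphatase that acts on JAK kinases, was at 172 and 159 FPKM against 17.5 and 19.1, and IL21R at 48.6 and 45.4 against 5.73 and 6.80. The JAK kinase TYK2 did not pass (log2 difference -0.02, adjusted p = 0.818). Of 18 cytokine genes kept, 12 were at least 2-fold higher in TMD8 and 3 in OCI-Ly7. Of the 18, 11 reached 1 FPKM in TMD8 only and 3 in OCI-Ly7 only, which fixes their direction. Among the 4 in both lines the counts were 2 and 0. Besides IL10 the cytokine genes higher in TMD8 included IL32, at 27.0 and 29.9 FPKM in TMD8 and listed at 0 in OCI-Ly7.

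Although IRF4 was higher in TMD8, most genes of the plasma cell and its secretory apparatus were higher in OCI-Ly7: 10 of 18, against 3 in TMD8, with a median difference of -1.28. MZB1, an antibody-folding factor, was at 33.5 and 32.8 FPKM in TMD8 against 280 and 295 (log2 difference -3.08, SE 0.06). XBP1, the factor that expands the secretory pathway, was at 18.1 and 15.8 FPKM against 60.1 and 61.3 (log2 difference -1.78, SE 0.08). TNFRSF17, the plasma cell receptor BCMA, was at 2.04 and 1.39 FPKM against 68.5 and 76.0 (log2 difference -4.76, SE 0.14), and CD27, a memory B cell receptor, at 1.54 and 1.69 against 68.6 and 75.4. PRDM1, the plasma cell repressor BLIMP1, was higher in TMD8, at 4.96 and 8.79 FPKM against 2.47 and 2.93 (log2 difference 1.05, SE 0.26, adjusted p = 0.0178), a call lost without either OCI-Ly7 library, at adjusted p = 0.145 without the first and 0.107 without the second. Of 28 transcription factors of B cell fate, 7 were at least 2-fold higher in TMD8 and 9 in OCI-Ly7. Among the 26 in both lines the counts were 5 and 9, and 53.8% were called, against 21.2% over all genes in both lines. POU2AF1, a coactivator that germinal centres need, was at 2.00 and 1.86 FPKM against 49.3 and 47.2 (log2 difference -4.07, SE 0.07), ID3 differed by -3.14 and IKZF3 by -2.14, all higher in OCI-Ly7. BATF3 was higher in TMD8 (log2 difference 2.20, SE 0.13), and PAX5, the keeper of B cell identity, by 0.43, a call lost without the first or second TMD8 library or the second OCI-Ly7 library (adjusted p = 0.127, 0.0946 and 0.063).

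Receptors that place B cells in tissue split sharply. The integrin chain ITGA4 (28.5 and 28.3 FPKM against 0 and 0.048), the oxysterol receptor GPR183 (18.1 and 18.0 against 0 and 0.13) and the egress receptor S1PR1 (10.1 and 10.2 against 0 in both) reached 1 FPKM in TMD8 only. CXCR4, the receptor of the germinal centre dark zone, was at 9.28 and 11.0 FPKM in TMD8 against 45.6 and 51.2 in OCI-Ly7 (log2 difference -2.15, SE 0.11), and the cannabinoid receptor CNR2 was at 0.11 and 0.22 against 13.7 and 18.7. CXCR5, which leads B cells to follicles, was at 54.8 and 47.6 against 60.2 and 68.8 FPKM (log2 difference -0.33, adjusted p = 0.0422), a call lost whichever library was left out (adjusted p = 0.0738 to 0.218). In all, 7 of 22 such genes were higher in TMD8 and 4 in OCI-Ly7 by the 2-fold rule; 5 of the 22 reached 1 FPKM in TMD8 only, and among the 16 in both lines the counts were 2 and 3. P2RY8, a receptor that confines germinal centre B cells, counts among the 7, at 16.5 and 16.9 FPKM against 0; it was, however, listed at 0 in both TMD8 libraries of day 3, so its row is uncertain.

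The lines differed in the levels of apoptosis family members, 13 of the 14 kept being present in both lines. BCL2A1, a survival protein induced by NF-kB, was at 342 and 371 FPKM in TMD8 against 85.7 and 82.4 in OCI-Ly7 (log2 difference 2.07, SE 0.07), the opposite of BCL2. The killer proteins BMF (8.39 and 8.34 FPKM against 79.3 and 80.4) and PMAIP1, or NOXA (52.0 and 51.3 against 294 and 278), were higher in OCI-Ly7 along with BCL2. BCL2L1 missed the threshold as deposited (log2 difference 0.25, SE 0.09, adjusted p = 0.0506) and passed after median-ratio scaling (0.31, adjusted p = 0.0128). MCL1 could not be compared: its libraries lay at 16.0 and 51.1 FPKM in TMD8 and at 5.13 and 44.5 in OCI-Ly7. Of the 14 genes 3 were at least 2-fold higher in TMD8 and 4 in OCI-Ly7.

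The genes that gate G1 held some of the clearest contrasts. RB1, which holds E2F factors back, was at 92.6 and 85.0 FPKM in TMD8 and at 1.56 and 2.16 FPKM in OCI-Ly7 (log2 difference 4.98, SE 0.13, adjusted p = 3.22e-05). CDKN1A, the kinase inhibitor p21, was at 65.1 and 67.6 FPKM against 4.94 and 4.58 (log2 difference 3.55, SE 0.07). CDKN2A, which encodes the inhibitors p16 and ARF, and its neighbour MTAP, which salvages methylthioadenosine, were both listed at 0 in both TMD8 libraries, and also in the 4 of days 3 and 6; in OCI-Ly7 CDKN2A stood at 7.76 and 8.95 and MTAP at 8.39 and 8.72 FPKM. Methylthioadenosine, which builds up in cells without MTAP, is known to inhibit PRMT5. E2F1 and E2F2 were higher in OCI-Ly7, by -1.68 and -3.15 on the log2 scale, while CCND3 and CDK6 did not pass (log2 differences 0.12 and 0.05). Of 28 genes of the G1/S transition and DNA replication, none was at least 2-fold higher in TMD8 and 5 were in OCI-Ly7, with a median difference of -0.65. RRM2 (36.1 and 30.0 FPKM against 168 and 177), PCNA (226 and 209 against 715 and 752), MCM7 and CDC6 were among them. Genes of G2 and mitosis had a median difference of 0.03, and 3 of 28 were higher in TMD8 (PLK1, TTK and BUB1) and 1, CDC25B, in OCI-Ly7. All genes of both groups were in both lines. The 2-fold rule called 17.9% of the G1/S genes and 14.3% of the G2 and mitosis genes. Both shares lay below the 21.2% called over all genes in both lines. The count of 3 moved between 1 and 4 when single libraries were left out, being 1 without the first TMD8 library, and BUB1 lost its call without either TMD8 library (adjusted p = 0.139 and 0.118). Among 25 p53 targets 5 were higher in TMD8 and 4 in OCI-Ly7; PHLDA3 was at 6.52 and 5.75 FPKM in TMD8 and listed at 0 in OCI-Ly7, GADD45A was at 5.58 and 5.49 against 40.8 and 35.1, and MDM2, which degrades p53, did not pass (log2 difference 0.15, adjusted p = 0.182).

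With all 4 libraries in the fit, cholesterol synthesis had the largest share of genes called higher in TMD8 among the lists. Without the first OCI-Ly7 library the share of the cytokine and chemokine genes was larger. All 25 genes were present in both lines, 17 were at least 2-fold higher in TMD8 and none in OCI-Ly7, and the median difference was 1.47 (1.52 after median-ratio scaling), against 0.01 over all genes present in both lines. Cells make cholesterol from acetyl-CoA under the sterol-sensing factor SREBP2, the product of SREBF2. SREBF2 was at 48.7 and 43.8 FPKM in TMD8 against 9.32 and 10.9 in OCI-Ly7 (log2 difference 2.09, SE 0.10, adjusted p = 0.000136). LSS and DHCR7, which close the sterol rings and finish the molecule, differed most: LSS was at 34.9 and 33.1 against 1.52 and 1.94 FPKM (log2 difference 3.68, SE 0.10) and DHCR7 at 60.6 and 58.1 against 4.03 and 4.18 (log2 difference 3.56, SE 0.07). FASN, the fatty acid synthase, was higher by 2.44 (SE 0.07). HMGCS1 was higher by 2.85 with a wide SE of 0.75, its libraries standing at 65.2 and 33.8 against 2.31 and 12.5 FPKM, and its call was lost without either TMD8 library (adjusted p = 0.21 and 0.128) or without the first OCI-Ly7 library (0.0717). TM7SF2 was the gene nearest 0 (log2 difference 0.02, SE 0.08, adjusted p = 0.805).

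**Figure D3:**
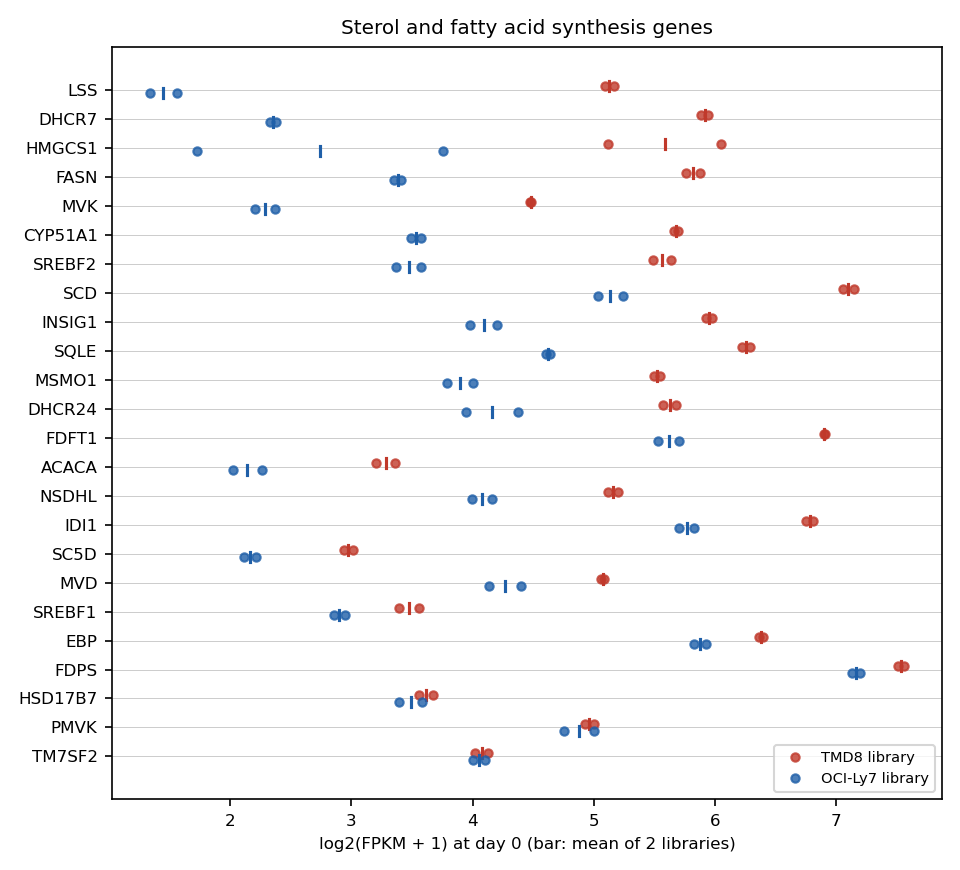
Levels of genes of the cholesterol synthesis list at day 0, log2(FPKM + 1), 1 point a library, ordered by the difference between the lines. TMD8 libraries lie to the right of those of OCI-Ly7 for most genes, most of all for LSS and DHCR7, and both lines meet at TM7SF2.

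The promoter of SREBF2 is shown because it held the one match in this group to the sterol element TCACNCCAC, searched on both strands. RefSeq held promoters for 20 of the 26 genes of the list, of which 1 gene was not kept. The element was found in 0.881% of all 15545 promoters. The stretch is the 250 bases before the start at chr22:41832855-41833104 (GRCh38.p14, plus strand), with the match in capitals.
SREBF2: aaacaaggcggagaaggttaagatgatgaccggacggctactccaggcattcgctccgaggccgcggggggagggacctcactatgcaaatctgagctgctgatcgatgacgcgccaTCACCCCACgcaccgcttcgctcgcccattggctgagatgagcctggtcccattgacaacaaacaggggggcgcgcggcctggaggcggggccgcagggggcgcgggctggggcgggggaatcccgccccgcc

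Some class II genes of antigen presentation reached 1 FPKM in OCI-Ly7 only. HLA-DQA1 and HLA-DQB1 were listed at 0 in TMD8, against 8.19 and 9.90 and 4.89 and 3.77 FPKM in OCI-Ly7, and HLA-DRB1 stood at 0.12 and 0 against 12.6 and 14.9. Their regulator CIITA did not pass (log2 difference -0.42, SE 0.17, adjusted p = 0.0808), and CD74, the class II chaperone, differed by less than 2-fold, at 994 and 986 against 1161 and 1248 FPKM, a call lost whichever library was left out (adjusted p = 0.0516 to 0.0952). Of 12 class II genes 5 were at least 2-fold higher in OCI-Ly7 and 1, IFI30, in TMD8. All 5 were among the 6 that reached 1 FPKM in OCI-Ly7 only, which fixes their direction; of the 6 in both lines none was at least 2-fold higher in OCI-Ly7. HLA genes vary between people and share sequence with each other, so the reads of a line can be lost or split between copies and these values are uncertain. Immune checkpoint and costimulatory genes went both ways: CD70 was at 155 and 159 FPKM in TMD8 against 25.0 and 27.8, TNFRSF1B at 18.5 and 18.0 against 0.39 and 0.38, and 8 of 26 were higher in TMD8 and 7 in OCI-Ly7 (5 and 6 of the 20 in both lines).

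PRMT5, the gene the guide targets, was slightly higher in TMD8 before induction, at 64.8 and 60.5 FPKM against 37.9 and 46.9 (log2 difference 0.56, SE 0.12, adjusted p = 0.0111). Without the first or second TMD8 library this call was lost (adjusted p = 0.127 and 0.0959). Its substrate adaptor CLNS1A did not pass, at 102 and 96.7 against 94.4 and 106 FPKM (log2 difference -0.01, adjusted p = 0.879). Of the 17 genes of the PRMT5 complex and its relatives, CARM1 (67.3 and 60.4 FPKM against 21.9 and 22.2) and PRMT3 were at least 2-fold higher in TMD8, and MTAP, counted in this list too, in OCI-Ly7. Those called were 17.6% of the genes kept in the list and 12.5% of those in both lines. Both shares lay below the 29.0% and 21.2% called over all genes. Leaving out single libraries moved the count for TMD8 between 1 and 2, being 1 without the first OCI-Ly7 library, and that for OCI-Ly7 between 1 and 2, being 2 without the first TMD8 library. MAT2A, which makes the methyl donor, was higher in OCI-Ly7 by less than 2-fold (log2 difference -0.94, SE 0.09). EZH2, the histone methyltransferase of germinal centre B cells, was at 44.4 and 40.8 FPKM against 119 and 122 (log2 difference -1.48, SE 0.07). In its list of 22 chromatin regulators EP300 and TET2 were higher in TMD8, and EZH2, TBL1XR1 and the linker histones HIST1H1C and HIST1H1E in OCI-Ly7. Both linker histones are replication-dependent histone rows, of which 44 of 60 kept (73.3%) were higher in OCI-Ly7, with limits given at the end.

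In the PI3K, AKT and mTOR list 4 of 22 were higher in TMD8 and 3 in OCI-Ly7. Among its 19 genes in both lines the counts were 2 and 3. In glycolysis and hypoxia they were 2 and 4 of 25, with 2 and 3 of the 23 in both lines. In the interferon response they were 6 and 2 of 20 (2 and 1 of the 14 in both lines). In the MYC network and ribosome biogenesis they were 4 and 1 of 30. The last count, for OCI-Ly7, was 2 without either OCI-Ly7 library. ENO2, a glycolytic enzyme, was at 1.76 and 2.17 FPKM in TMD8 against 33.6 and 33.5 (log2 difference -3.55, SE 0.09), whereas ALDOA did not pass (log2 difference -0.04, adjusted p = 0.621). Of the genes kept in the PI3K, glycolysis, interferon and MYC lists the 2-fold rule called 31.8%, 24.0%, 40.0% and 16.7%, against 29.0% over all. Among genes in both lines it called 26.3%, 21.7%, 21.4% and 17.2%, against 21.2%. The plot of the lists sets the shares of kept genes side by side, by direction.

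**Figure D4:**
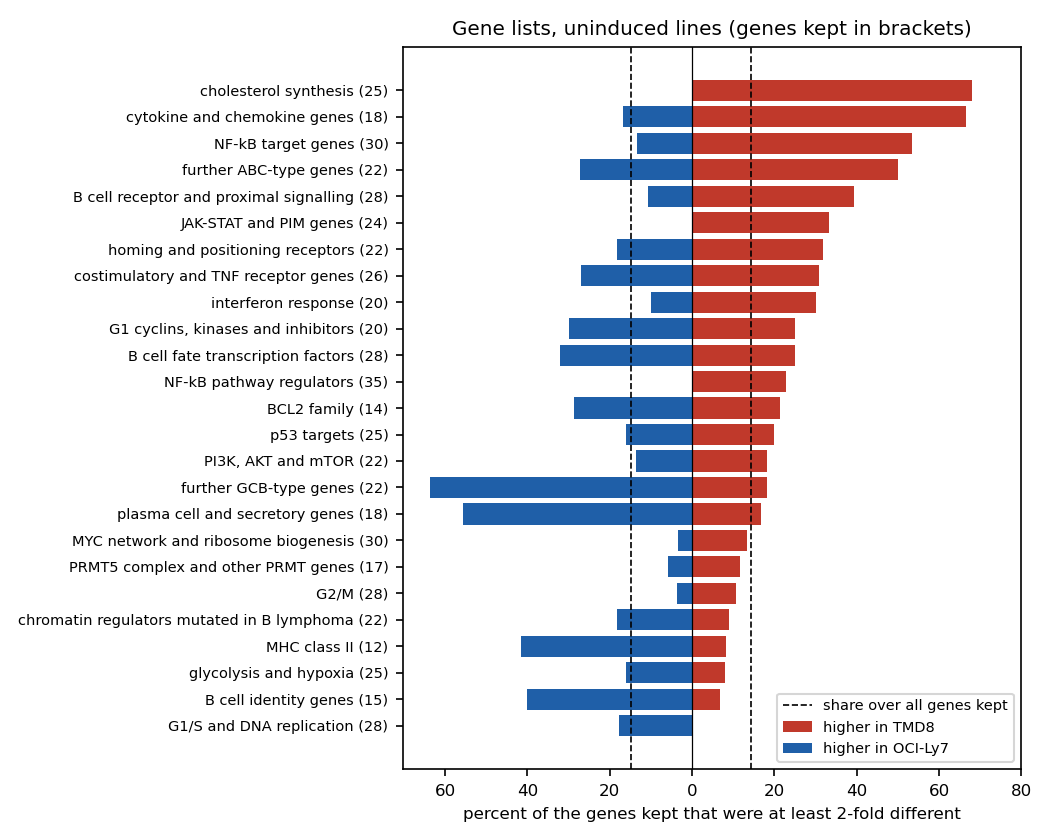
Percent of the genes kept in each list with at least 12 genes kept that were at least 2-fold higher in TMD8 (red, to the right) or OCI-Ly7 (blue, to the left) at day 0, with the number kept in brackets and the shares over all genes kept, 14.2% and 14.8%, as dashed lines. Cholesterol synthesis reaches farthest to the TMD8 side, and further GCB-type genes and plasma cell and secretory genes farthest to the OCI-Ly7 side among the lists drawn.

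The differences seen at day 0 were looked up in the libraries of days 3 and 6, when both lines had been induced; those libraries are other samples of the same lines, and induction and time act in them as well. Of the 1682 genes higher in TMD8 at day 0, 99.4% had the same direction at day 3 and 98.0% at day 6, and 72.9% and 65.9% were again called at least 2-fold as deposited. Of the 1753 higher in OCI-Ly7, 98.5% and 97.2% had the same direction and 88.9% and 85.7% were called. After both scalings those called were 72.8% and 65.9% for TMD8 and 82.1% and 79.1% for OCI-Ly7. Over all genes kept, 28.9% were called at least 2-fold at day 3 and 33.3% at day 6 as deposited. The scaling moved the split at the later days: 1323 of 3421 genes at day 3 and 1439 of 3947 at day 6 were higher in TMD8 as deposited, and 1639 of 3317 and 1884 of 3895 after median-ratio scaling. Among the 6 markers CCND2 stayed at log2 differences of 6.05 and 6.03 and IRF4 at 2.07 and 1.98, while BCL2 stood at -3.23 and -4.03 and BCL6 at -2.32 and -2.66. MEF2B, higher in TMD8 at day 0, did not pass at day 3 (adjusted p = 0.103) and passed at day 6 (adjusted p = 0.000851), but its OCI-Ly7 libraries disagreed, at 49.5 and 1.98 FPKM at day 3 and at 1.73 and 0.084 FPKM at day 6, so the row is uncertain. PAX5, higher in TMD8 by 0.43 at day 0, differed by 0.002 at day 3 (adjusted p = 0.988) and by -1.04 at day 6. The differences between days were not tested.

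**Figure D5:**
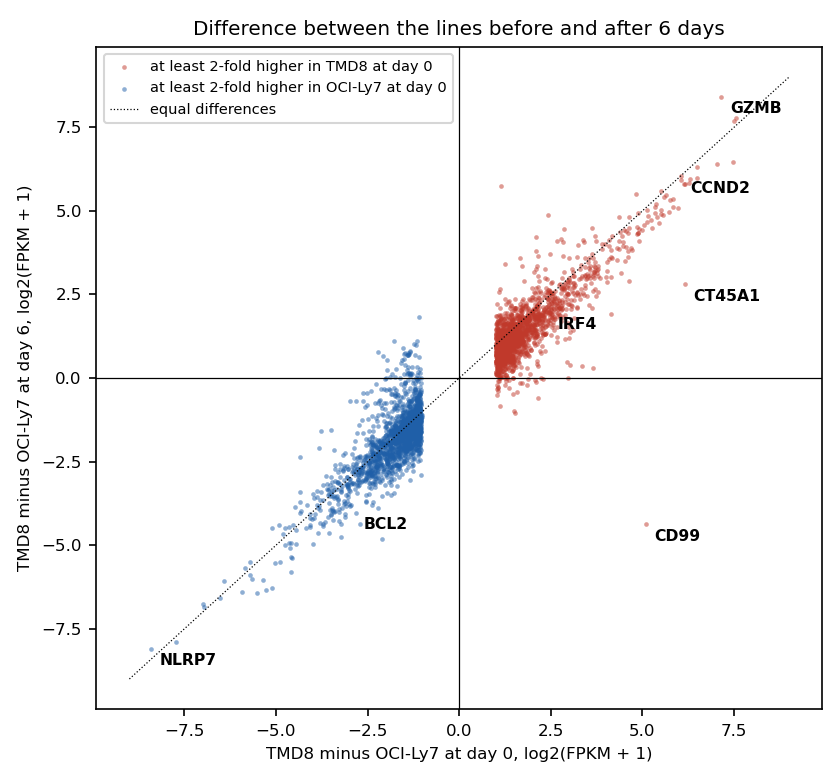
Difference between the lines at day 6 (vertical) against day 0 (horizontal), TMD8 minus OCI-Ly7 in log2(FPKM + 1), 1 point for each gene at least 2-fold different at day 0 (red, higher in TMD8; blue, higher in OCI-Ly7); the dotted line marks equal differences. Most points keep their side of 0, whereas CD99 lies far on the other side; Y-linked rows are not drawn.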

How the data were processed

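RNA-seq was deposited as 1 table of FPKM values per line. Per the submitters' processing notes the authors used HISAT and StringTie with hg19; versions, filters and read depth are not given in the sources used here, so no counting interval could be computed. The deposited FPKM values are scaled by transcript length and mapped fragments, and keep no counts. Rows were matched on Name (25369; 2 names were held by more than 1 row), and genes with a mean of at least 1 FPKM in either line at day 0 were kept. The 4 day 0 libraries were fitted with limma 3.58.1 (R 4.3.3, trended empirical Bayes, Benjamini-Hochberg) on log2(FPKM + 1), as deposited and after median-ratio scaling, with 2 residual degrees of freedom. The model was tested on simulated data. The members and the 35 gene lists (688 of 703 genes matched) were chosen with earlier results of these data known. Genes named by rule were the 15 largest differences in each direction, the 8 largest among genes at 5 FPKM or more in both lines, the 5 largest of each list with the one nearest 0, and fixed markers; Y-linked genes, XIST, small RNA, ribosomal RNA and replication-dependent histone rows were left out of naming. MS4A1, IL6, NFKBIA, LTB, IL2RG, IRF1, E2F1, E2F2, SREBF2, HIST1H1C and HIST1H1E, and the rows of the closing observations, were chosen after their values were seen, as were the promoters shown. Some list genes are not reported here, though the counts include them. Promoter sequences are RefSeq's, of GRCh38.p14, matched by symbol, a build other than that of the files. Alternatives were another pseudocount, other filters, other scalings, no trend, a replicate block, all 12 libraries and leaving out each library. Libraries with the same replicate number did not deviate together at day 0 (r = -0.0223 across genes), so numbers were not used as pairs.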

Additional observations from a re-analysis of the deposited data

Results flagged for a closer look

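Among genes at least 2-fold different at day 0, 5 were at least 2-fold different in the opposite direction at a later day; the difference between days was not tested. CD99, an adhesion molecule, had a log2 difference of 5.105 at day 0 and -4.366 at day 6: TMD8 went from 33.98 and 32.85 FPKM to 0 in both libraries and OCI-Ly7 from 0 in both to 20.84 and 18.48 FPKM, and at day 3 the OCI-Ly7 libraries disagreed with each other, at 31.34 and 0 FPKM, so the CD99 row is uncertain. ZNF106 went from 1.654 at day 0 to -1.31 at day 3. TMCO1 went from -1.106 to 1.834 at day 6, LOC100131138 from -1.792 to 1.122 at day 6, and RPPH1, a small RNA gene, from -1.234 to 1.013 at day 6.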

How the results depend on the processing

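At day 0, 8843 genes passed an adjusted p of 0.05 as deposited. The count was 8775 with a pseudocount of 0.1, 10081 with no filter, 6505 with at least 5 FPKM in either line, 8837 without the trend, 8341 with all 12 libraries in the fit, 9032 after median-ratio scaling, and 6632 to 7745 when a library was left out; a line left with 1 library is assumed to vary like the other. Of the genes at least 2-fold different, 3554 as deposited and 3541 after median-ratio scaling, 2186 and 2175 were left among genes reaching 1 FPKM in both lines, where fewer genes are tested. At day 3, 7621 genes passed, and 3531 to 7241 without a library; the low counts, 3626 and 3531, were without the first and the second TMD8 library, and the cause was not tested. With a replicate block the counts were 8560 at day 0, 6896 at day 3 and 8048 at day 6; same-numbered libraries did not deviate together (r = -0.0223, -0.0888 and 0.0298 across genes at days 0, 3 and 6), so the block pairs libraries that share only a number. No gene named by the rule that passed the threshold turned direction under these settings. Of such genes, 178 had an adjusted p under 0.05 under both scalings and a difference of at least 1 as deposited. Some of the 178 lost their call without 1 library, as given above. Others fell below a difference of 1, such as PRMT7, at -1.011 with all libraries and from -1.122 to -0.9 without 1. Read depth is not given in the sources used here, so the precision of low values is unknown.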

Other observations

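Gene families outside the lists also separated the lines; they were chosen after their values were seen and carry no test. Of 473 zinc finger rows named ZNF, 354 were kept: 229 in both lines, 111 only in OCI-Ly7 and 14 only in TMD8. Among all 354, 60 were listed at 0 in TMD8 and 1 in OCI-Ly7, and the 2-fold rule called 120 (33.9%) higher in OCI-Ly7 and 30 (8.47%) in TMD8. Among the 229 present in both lines the split was even, with 20 and 25. Several of the rows lay side by side in the genome: one run of 15 neighbouring rows, from ZNF600 to ZNF813, was called higher in OCI-Ly7 without a break, 8 of them listed at 0 in TMD8. The longest run, of 21 rows from SNRPN through SNURF and the SNORD116 copies to IPW, in the imprinted region of Prader-Willi syndrome, was listed at 0 throughout in TMD8; SNURF was at 88.3 and 95.1 FPKM in OCI-Ly7. SNORD116 rows are near copies of each other and short, so their single values are uncertain.

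Replication-dependent histone rows were mostly higher in OCI-Ly7: of 60 kept 44 (73.3%) were, against 5 in TMD8, and their summed level was 428 and 521 FPKM in TMD8 against 3409 and 3266 in OCI-Ly7. Most of these transcripts lack a poly(A) tail, and the level of the ribosomal RNA row RNA45S5 differed too, at 5222 and 7950 against 11160 and 10370 FPKM; its part in the histone difference was not tested. HIST1H1C alone was at 109 and 103 FPKM against 1687 and 1732. Cytosolic ribosomal protein rows went the other way, with 17 of 78 higher in TMD8 and 1 in OCI-Ly7. The 2 most unequal, RPL13A (5245 and 5559 FPKM in TMD8 against 399.6 and 393.2) and RPL13AP5 (191.9 and 178.6 against 3235 and 3427), are near-identical copies, so how reads were split between them makes both values uncertain.

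Replicate libraries of the same line lay far apart for a few rows. MCL1 was at 16.0 and 51.1 FPKM in TMD8 and at 5.13 and 44.5 in OCI-Ly7, and ISY1, a reference gene of the Lymph2Cx panel, at 0.077 and 8.06 and at 3.56 and 8.67. The other 4 reference genes, R3HDM1, TRIM56, UBXN4 and WDR55, were higher in TMD8 by 0.21 to 0.69 on the log2 scale. The calls for UBXN4 and R3HDM1 were lost without either TMD8 library, with an adjusted p of up to 0.0938 and 0.0731, and that for UBXN4 also without the second OCI-Ly7 library.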
